A study of Mus musculus with 4 samples.

Results

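The genes described here are 10 that build the T cell receptor complex and its first signalling steps, namely Cd3d, Cd3e, Cd3g, Cd247, Cd8a, Cd8b1, Lck, Zap70, Lat and Ptprc. They were chosen by gene name, and all 10 were found among the 53465 genes of the count table and among the 13528 genes with enough counts to test. The RNA came from CD8+ T cells of the mouse spleen, which had been cultured for 24 h with anti-CD3/CD28 beads in place of antigen and costimulation. The 2 libraries labelled KO are from PP2Cm-/- mice and the 2 labelled WT are from wild-type mice, and both labels received the same stimulation. PP2Cm is the mitochondrial phosphatase that switches on breakdown of branched-chain amino acids, and the study compared activated CD8+ T cells with and without it. The strain and age of the mice, the design of the deleted allele, and whether 1 library is 1 mouse are not stated by the labels, beyond the title's word for biological replicates. If the libraries of 1 label share a culture or an animal, the spread between them is technical.

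The T cell receptor itself has no signalling tail, so it works through the CD3 gamma, delta, epsilon and zeta chains, whose cytoplasmic tails carry tyrosine motifs known as ITAMs. The coreceptor CD8 binds MHC class I and brings the kinase LCK to the complex. LCK phosphorylates the ITAMs, ZAP70 docks on them and phosphorylates the adaptor LAT, while the phosphatase CD45, encoded by Ptprc, removes an inhibitory phosphate from LCK. Once engaged, receptor complexes are known to be internalised and partly degraded, so transcript levels are not levels at the cell surface.

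Among the 10 genes, 3 lie in 1 cluster on chromosome 9 and both coreceptor genes lie on chromosome 6. In GRCm38, Cd3g (ENSMUSG00000002033) runs on the minus strand at chr9:44969572-44980431, Cd3d (ENSMUSG00000032094) on the plus strand at chr9:44981786-44987339, and Cd3e (ENSMUSG00000032093) on the minus strand at chr9:44998740-45009627. The starts of Cd3g and Cd3d face away from each other, 1355 bases apart, and neither gene overlaps another in GENCODE M21. The 250 bases before the RefSeq start (GRCm38.p6) of these 3 genes are shown because Cd3d and Cd3g had the largest differences between the labels among the 10 genes while Cd3e, in the same cluster, did not. Capitals mark GGAAG, 1 form of the GGAA core bound by ETS factors, on either strand. GGAA followed by another letter was not searched, and the Cd3g window holds it unmarked. The windows are chr9:44981536-44981785 for Cd3d, chr9:44980432-44980681 for Cd3g and chr9:45009612-45009861 for Cd3e, each written 5′ to 3′ on the strand of its gene.
Cd3d: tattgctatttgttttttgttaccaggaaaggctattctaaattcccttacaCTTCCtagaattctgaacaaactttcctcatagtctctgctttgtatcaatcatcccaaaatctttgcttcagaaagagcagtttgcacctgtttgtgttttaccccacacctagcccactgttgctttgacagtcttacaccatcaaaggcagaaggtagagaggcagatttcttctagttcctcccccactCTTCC
Cd3g: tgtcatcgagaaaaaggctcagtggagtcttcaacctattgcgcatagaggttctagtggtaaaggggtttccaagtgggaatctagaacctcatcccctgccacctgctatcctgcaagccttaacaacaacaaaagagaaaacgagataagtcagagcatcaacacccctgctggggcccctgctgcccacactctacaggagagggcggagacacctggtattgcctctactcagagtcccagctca
Cd3e: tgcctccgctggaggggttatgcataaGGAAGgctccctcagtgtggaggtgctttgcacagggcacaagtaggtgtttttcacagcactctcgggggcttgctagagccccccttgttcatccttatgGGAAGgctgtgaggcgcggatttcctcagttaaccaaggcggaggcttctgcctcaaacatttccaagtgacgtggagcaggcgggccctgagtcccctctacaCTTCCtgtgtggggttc
Cd3d held 2 matches to GGAAG, Cd3g 0 and Cd3e 3, and none of them overlapped a match to another motif searched. The RUNX letters TGTGGT and the TATA letters TATAAA, on either strand, were in 0 of these 3 windows. Of all 32851 RefSeq promoter windows, 64.1% held GGAAG, 14% TGTGGT and 12.4% TATAAA, so most windows hold the first. RefSeq windows were matched for 9 of the 10 genes.

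The libraries labelled KO held 13394074 and 14199020 counts and those labelled WT 12967251 and 17316284, and the 10 genes together took between 0.333% and 0.376% of the counts of a library. Ppm1k, the gene for PP2Cm, went against the labels. It was at 11.8 and 14.2 counts per 1000000 (CPM) in the libraries labelled KO, against 7.83 and 5.53 CPM in those labelled WT, a log2 fold change of 0.97 (SE 0.23; edgeR adjusted p = 0.186), and it passed without labelled WT replicate 1 (1.24, edgeR adjusted p = 0.0278). A count for the whole gene does not tell which of its exons were read. The description codes of the samples also name the opposite genotype to their titles. Libraries are therefore called labelled KO and labelled WT here, and every sign below would turn if the codes were right.

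As a check of the labelled cell type, markers of other cells were summed beside Cd8a and Cd8b1, which are described below. CD4 and regulatory T cell markers, with 5 of 5 counted, summed to 46.6 and 40.9 CPM in the libraries labelled KO and 38.9 and 38.2 CPM in those labelled WT, led by Ikzf2, and Cd4 itself was at most 9.99 CPM in any library. B cell markers, with 8 of 8 counted, summed to 304 and 269 CPM in the libraries labelled KO and 426 and 367 CPM in those labelled WT. Most of this was Ighm, at 285 and 257 CPM under the KO label and 406 and 344 CPM under the WT label, while the B cell factor Pax5 was at most 1.65 CPM. Erythroid and platelet markers, of which 7 of 8 were counted, Alas2 was at 0 and Hba-a1 led, summed to 1.65 and 2.28 CPM under the KO label and 3.30 and 6.17 CPM under the WT label. These 3 sums did not overlap between the labels. The sums of NK cell, gamma-delta T cell, myeloid and dendritic cell markers, led by Klre1, Trdc, Csf1r and Zbtb46, overlapped between the labels and were at most 20.1 CPM, with S100a9 and Cd209a at 0. Their part in the results below was not tested.

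The CD3 chains were asked about first. Cd3d, which encodes CD3 delta, was at 107 and 137 CPM in the libraries labelled KO, against 173 and 175 CPM in those labelled WT. Both libraries labelled KO lay below both labelled WT, and the 2 labelled KO libraries differed more from each other than the labelled WT pair did. The mean was 122 ± 21.2 CPM in the libraries labelled KO and 174 ± 1.41 CPM in those labelled WT (SD, n = 2 each), 1.43-fold lower, a log2 fold change of −0.52 (SE 0.14, 95% limits −0.85 and −0.19). Its unadjusted p was 0.00765 and its p adjusted over all genes 0.222 by edgeR, so it did not pass the threshold of 0.05. In bulk RNA, fewer cells of a type and less RNA per cell cannot be told apart.

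Cd3g, which encodes CD3 gamma, the chain whose di-leucine motif is known to direct receptor internalisation, had the next largest difference among the 10 genes. It was at 118 and 114 CPM in the libraries labelled KO, against 171 and 138 CPM in those labelled WT. The labelled KO pair was tight and lay below both labelled WT libraries, of which replicate 1 was the higher. The log2 fold change was −0.41 (SE 0.13, 95% limits −0.73 and −0.10), or 1.33-fold lower, with an unadjusted p of 0.0169 and an adjusted p of 0.276 by edgeR. It was −0.24 without labelled WT replicate 1.

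Cd247 encodes CD3 zeta, the chain with the most ITAMs, and lies at chr1:165788681-165877277. Its level was 176 and 164 CPM in the libraries labelled KO, against 219 and 186 CPM in those labelled WT, again without overlap. The log2 fold change was −0.25 (SE 0.12), with 95% limits of −0.54 and 0.04 and an edgeR adjusted p of 0.446, and it was −0.12 without labelled WT replicate 1. Cd247 shares 3007 exon bases with Pou2f1 on the opposite strand and 206 with Gm16565 on its own strand. Its counts may thus be less certain than those of Cd3d and Cd3g, which was not tested. Pou2f1 held 1046 and 1262 counts in the libraries labelled KO and 968 and 1048 in those labelled WT. Gm16565 held 10 and 16 counts under the KO label and 24 and 19 under the WT label.

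Cd3e encodes CD3 epsilon, which pairs with both the gamma and the delta chain. It had 331 and 312 CPM in the libraries labelled KO, against 344 and 294 CPM in those labelled WT. The labelled KO libraries lay between the labelled WT libraries. The log2 fold change was 0.01 (SE 0.12), with 95% limits of −0.27 and 0.30 (edgeR adjusted p = 0.98), and it was −0.03 without labelled KO replicate 1 and −0.10 without labelled WT replicate 2. Cd3e shares 135 exon bases with the antisense gene Gm48719, which had at most 1 count in a library.

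**Figure D1:**
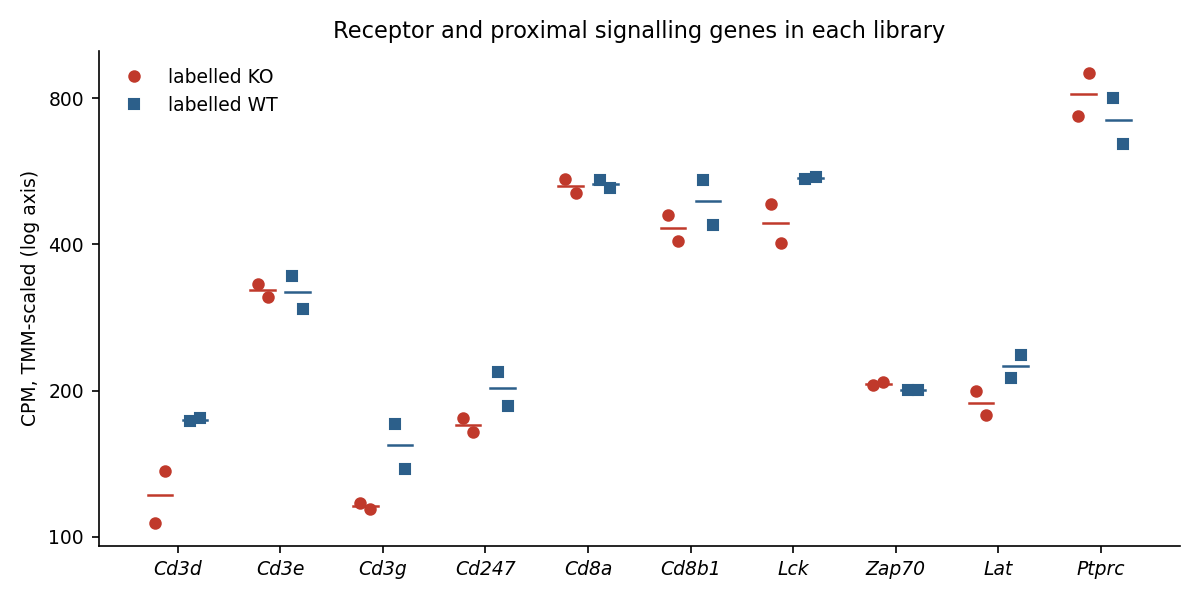
Counts per 1000000, scaled by TMM, on a log axis for each of the 10 genes, with circles for the 2 libraries labelled KO, squares for the 2 labelled WT and a line at each mean. Cd3d, Cd3g, Cd247, Lck and Lat are lower in both libraries labelled KO, Zap70 is slightly higher in both, and Cd3e, Cd8a, Cd8b1 and Ptprc overlap between the labels.

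**Figure D2:**
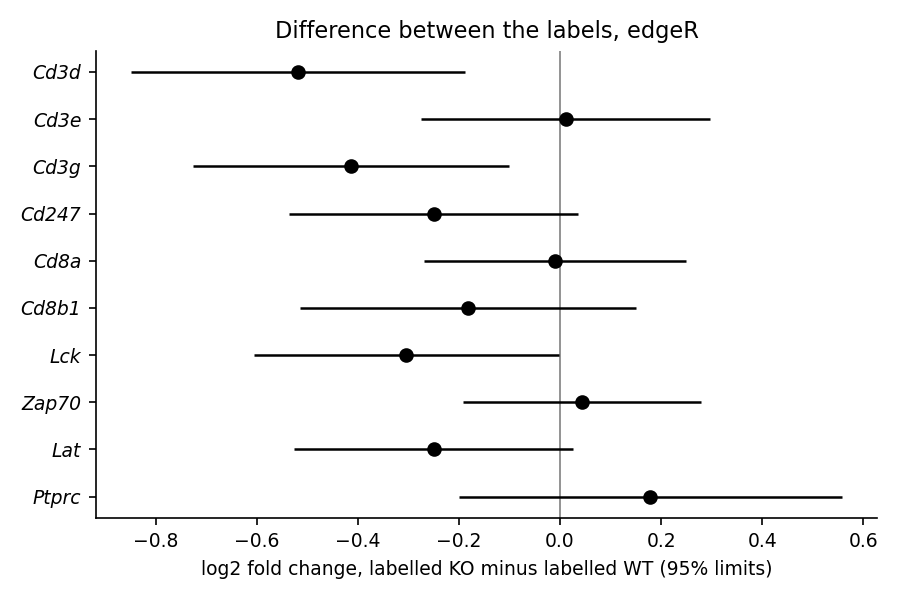
Log2 fold change of each gene, labelled KO minus labelled WT, with 95% limits from the edgeR fit. The limits of Cd3d, Cd3g and Lck lie below 0 before adjustment, and no gene passed after adjustment over all genes.

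Because the chains assemble into 1 complex, their proportions within a library were compared, which needs no scaling between libraries. Relative to Cd3e, each of the other chains had lower ratios in both libraries labelled KO. The ratio of Cd3g to Cd3e, in FPKM (counts per kilobase and per 1000000), was 0.445 and 0.457 in the libraries labelled KO, against 0.621 and 0.587 in those labelled WT, 25.3% lower on the means. The ratio of Cd3d to Cd3e was 0.670 and 0.910 in the libraries labelled KO, against 1.05 and 1.24 in those labelled WT, 30.9% lower. For Cd247 to Cd3e the values were 0.288 and 0.285 under the KO label and 0.344 and 0.343 under the WT label, 16.6% lower. With total exon lengths in place of those behind the FPKM, they were 0.406 and 0.402 under the KO label and 0.486 and 0.483 under the WT label. The level of each ratio depends on the gene lengths used, and its percent difference between labels does not. Counting error alone gives these 3 ratios a coefficient of variation between 2.27% and 3.05% in a library. The replicates of Cd3d to Cd3e under the KO label lay farther apart than the nearest libraries of the 2 labels did. The labels did not overlap in any of the 3 ratios, and the exact two-sided permutation test gave p = 0.333 for each, the smallest that 2 against 2 libraries allow. The 3 ratios share Cd3e and the same libraries and are not independent of each other. Cd3d and Cd3g, whose starts face away from each other in the cluster, had a ratio of 1.5 and 1.99 under the KO label and 1.68 and 2.11 under the WT label, which overlapped (exact p = 0.667). This last ratio was added after the values were seen.

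**Figure D3:**
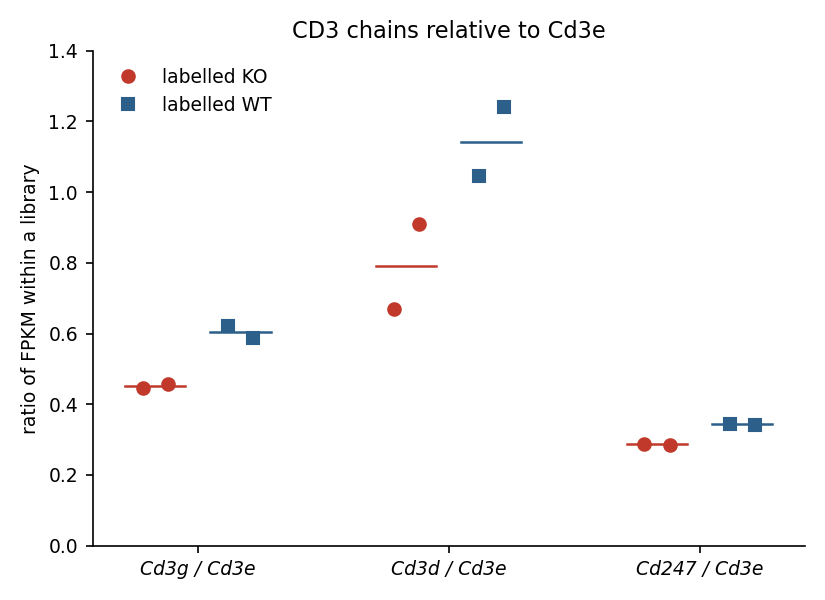
Ratio of FPKM of Cd3g, Cd3d and Cd247 to that of Cd3e within each library, with circles for the libraries labelled KO, squares for those labelled WT and a line at each mean. In all 3 ratios both circles lie below both squares, with the widest spread between replicates for Cd3d.

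The CD8 coreceptor came next. CD8 on conventional T cells is a pair of an alpha and a beta chain, encoded by Cd8a (chr6:71373427-71379173) and Cd8b1 (chr6:71322788-71337494), which lie 35933 bases apart on the same strand. Cd8a, whose product binds LCK, was at 546 and 510.3 CPM in the libraries labelled KO, against 541 and 522 CPM in those labelled WT. The labels overlapped, with a log2 fold change of −0.01 (SE 0.11) and 95% limits of −0.27 and 0.25 (edgeR adjusted p = 0.98). Its sign turned when totals alone scaled the libraries, at 0.01. Cd8b1, whose product raises the affinity of the coreceptor for MHC class I, was at 459 and 406 CPM in the libraries labelled KO, against 542 and 439 CPM in those labelled WT. The higher labelled KO library lay above the lower labelled WT library, and the log2 fold change was −0.18 (SE 0.14, 95% limits −0.52 and 0.15; edgeR adjusted p = 0.637). It was −0.017 without labelled WT replicate 1, −0.32 without labelled WT replicate 2 and −0.09 without labelled KO replicate 2. The ratio of Cd8b1 to Cd8a in FPKM was 4.361 and 4.13 under the KO label and 5.19 and 4.365 under the WT label. The upper labelled KO value and the lower labelled WT value thus lay closer together than the counting coefficient of variation of at least 1.57% (exact two-sided permutation p = 0.333).

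Of the signalling enzymes and the adaptor, none passed the threshold, and the log2 fold changes were negative for Lck and Lat and positive for Zap70 and Ptprc. Lck, the kinase that starts the cascade (chr4:129548344-129573641), was at 484 and 402 CPM in the libraries labelled KO, against 544 and 550.1 CPM in those labelled WT. Both libraries labelled KO were lower, and the labelled WT pair was tight. The log2 fold change was −0.30 (SE 0.13), 1.23-fold lower, with an unadjusted p of 0.0489 and an adjusted p of 0.385 by edgeR. It was −0.17 without labelled KO replicate 2 and −0.44 without labelled KO replicate 1.

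Lat, the membrane adaptor on which phospholipase C gamma and GRB2 dock (chr7:126363824-126369570), had 199.5 and 178 CPM in the libraries labelled KO, against 212 and 237 CPM in those labelled WT. The labels did not overlap. Its log2 fold change was −0.25 (SE 0.12), with 95% limits of −0.53 and 0.03 (edgeR adjusted p = 0.431), and it was −0.17 without labelled KO replicate 2.

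Zap70 (chr1:36761798-36782818) was the steadiest of the 10 genes between replicates, at 205 and 208 CPM in the libraries labelled KO, against 200.2 and 201 CPM in those labelled WT. The labelled KO pair was above the labelled WT pair, by a log2 fold change of 0.04 (SE 0.10), and the 95% limits of −0.19 and 0.28 hold changes in either direction (edgeR adjusted p = 0.898). Replicates of Zap70 differed by 0.03 on the log2 scale under the KO label and by 0.005 under the WT label.

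Ptprc (chr1:138062861-138175708) had 733 and 899.9 CPM in the libraries labelled KO, against 799 and 644 CPM in those labelled WT. The labels overlapped, and the log2 fold change was 0.18 (SE 0.16, edgeR adjusted p = 0.695). It was 0.03 without labelled KO replicate 2 or without labelled WT replicate 2, 0.32 without labelled KO replicate 1 and 0.35 without labelled WT replicate 1. Replicates of Ptprc differed by 0.30 on the log2 scale under the KO label and by −0.31 under the WT label (replicate 2 minus replicate 1), more than the labels did. Ptprc is made by nearly all leukocytes, B cells included. CD45 has isoforms that differ by exons skipped in activated T cells, which counts per gene do not resolve.

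Over all 10 genes, 0 passed the threshold by edgeR, where 0.207% of all genes tested did, and DESeq2 and limma also called 0 of the 10. Before adjustment, p was under 0.05 for 3 genes that were lower (Cd3d, Cd3g and Lck) and for 0 that were higher, where 12.9% of all genes tested had such a p, 7.23% being lower and 5.7% higher. Both libraries labelled KO lay below both labelled WT in 5 of the 10 genes and above them in 1, where 23.3% and 21.5% of all genes tested did so. In 6 of the 10 the difference between the labels was larger than both differences between replicates, against 32.7% of all genes tested. In 5 of the 10 it was larger in this way and lower under the KO label, against 17% of all genes tested. The median log2 fold change of the 10 was −0.22, with 7 negative and 3 positive, against −0.01 over all genes tested, of which 51.9% were negative. The median was −0.13 without labelled KO replicate 2 and −0.07 without labelled WT replicate 1, the library in which the CD3 chains together were highest. The 4 CD3 chains summed to 731 and 727 CPM in the libraries labelled KO, against 907 and 792 CPM in those labelled WT. The coreceptor pair summed to 1005 and 916 CPM in the libraries labelled KO and 1083 and 962 CPM in those labelled WT, and the 4 proximal genes to 1622 and 1689 CPM in the libraries labelled KO and 1755 and 1632 CPM in those labelled WT. The sums of the CD3 chains thus did not overlap between the labels, and those of the other groups did.

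The receptor chains that the CD3 chains carry were read from their constant regions. Trac, the constant gene of the alpha chain, was at 281 and 314 CPM in the libraries labelled KO, against 348 and 294 CPM in those labelled WT (log2 fold change −0.11, edgeR adjusted p = 0.777). Trbc1 and Trbc2, the constant genes of the beta chain, had log2 fold changes of −0.18 and −0.25, with edgeR adjusted p values of 0.528 and 0.433. Trbc2 was at 400.5 and 349 CPM under the KO label and 448 and 442 CPM under the WT label, and Trbc1 at 134 and 125 CPM under the KO label and 143 and 151 CPM under the WT label. The beta constant genes did not overlap between the labels, but they are near-identical in sequence and the way their shared reads were divided is not known from the labels.

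Other genes of the pathway were read from 3 more lists, and none of their genes passed the threshold by edgeR. Of 20 other proximal kinases and adaptors, 13 had a log2 fold change below 0 and 7 above it, and the median was −0.13. Before adjustment 5 of them were lower and 1 was higher at p under 0.05, against 7.23% and 5.7% of all genes tested. The median was −0.06 without labelled KO replicate 2, −0.05 without labelled WT replicate 1 and −0.07 on log2(FPKM + 1). Skap1, an adaptor that links the receptor to integrin activation, was at 65.8 and 61.9 CPM in the libraries labelled KO, against 94.5 and 97.5 CPM in those labelled WT (log2 fold change −0.59, edgeR adjusted p = 0.121). Txk, a kinase of the TEC family, was at 19.5 and 23.2 CPM under the KO label, against 33.7 and 38.9 CPM under the WT label (−0.77, edgeR adjusted p = 0.154). Lcp2, which encodes the adaptor SLP-76, was at 299 and 306 CPM under the KO label, against 266 and 219 CPM under the WT label (0.32, edgeR adjusted p = 0.359), and the adaptor Trat1 had a log2 fold change of 0.59 (edgeR adjusted p = 0.569) at 4.51 and 5.25 CPM under the KO label and 4.45 and 2.12 CPM under the WT label. Skap1, Txk, Lcp2 and Trat1 each kept their labels apart. They were named for the smallest p in each direction, so their different directions follow from that choice. For Trat1 the nearest libraries, labelled KO replicate 1 and labelled WT replicate 1, held 60 and 58 counts. Both libraries labelled KO lay below both labelled WT in 9 of the 20 and above them in 4, where 23.3% and 21.5% of all genes tested did so.

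Of 20 negative regulators of proximal signalling, 15 had a log2 fold change below 0 and 5 above it. The median was −0.16, and both libraries labelled KO lay below both labelled WT in 10 of the 20, where 23.3% of all genes tested did so. Before adjustment 5 were lower and 0 were higher at p under 0.05, against 7.23% and 5.7% of all genes tested. The median ran from −0.23 without labelled WT replicate 2 to −0.11 without labelled WT replicate 1. Ubash3b encodes STS-1, a phosphatase that acts on ZAP70 and related kinases. It was at 7.88 and 10.6 CPM in the libraries labelled KO, against 25.2 and 26.8 CPM in those labelled WT, 2.81-fold lower, a log2 fold change of −1.49 (SE 0.19). Its edgeR adjusted p was 0.0502, just outside the threshold, and it passed in 5 of the 11 alternatives. Its relative Ubash3a had a log2 fold change of −0.06 (edgeR adjusted p = 0.861) and was named after its values were seen. Sit1, an adaptor that recruits the phosphatase SHP2, was at 13.7 and 10.3 CPM under the KO label and 21.02 and 26.1 CPM under the WT label (−0.97, edgeR adjusted p = 0.147). Csk, the kinase that sets the inhibitory phosphate on LCK and so opposes CD45, had a log2 fold change of 0.11 (edgeR adjusted p = 0.827) and Ptpn11, which encodes SHP2, one of 0.20 (edgeR adjusted p = 0.446). By DESeq2, 6 genes of these lists passed, all lower, namely Txk, Skap1, Ubash3b, Sla2, Dgka and Sit1, where DESeq2 called 2.05% of all genes tested and 1.37% as lower.

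Downstream of LAT, the calcium and NFAT genes were divided, with 7 of 14 negative, 7 positive and a median of 0.01, which ran from −0.05 to 0.07 with 1 library left out. Orai1, the pore of the calcium channel opened by store depletion, was at 48.1 and 36.4 CPM in the libraries labelled KO, against 33.6 and 28.2 CPM in those labelled WT (log2 fold change 0.45, edgeR adjusted p = 0.388). Its relative Orai2 had a log2 fold change of −0.26 (edgeR adjusted p = 0.515), the inositol trisphosphate receptor Itpr3 one of −0.37 (edgeR adjusted p = 0.327) and Ppp3r1, the regulatory subunit of calcineurin, one of 0.16 (edgeR adjusted p = 0.649). Genes downstream of the adaptor thus lay on either side of 0.

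**Figure D4:**
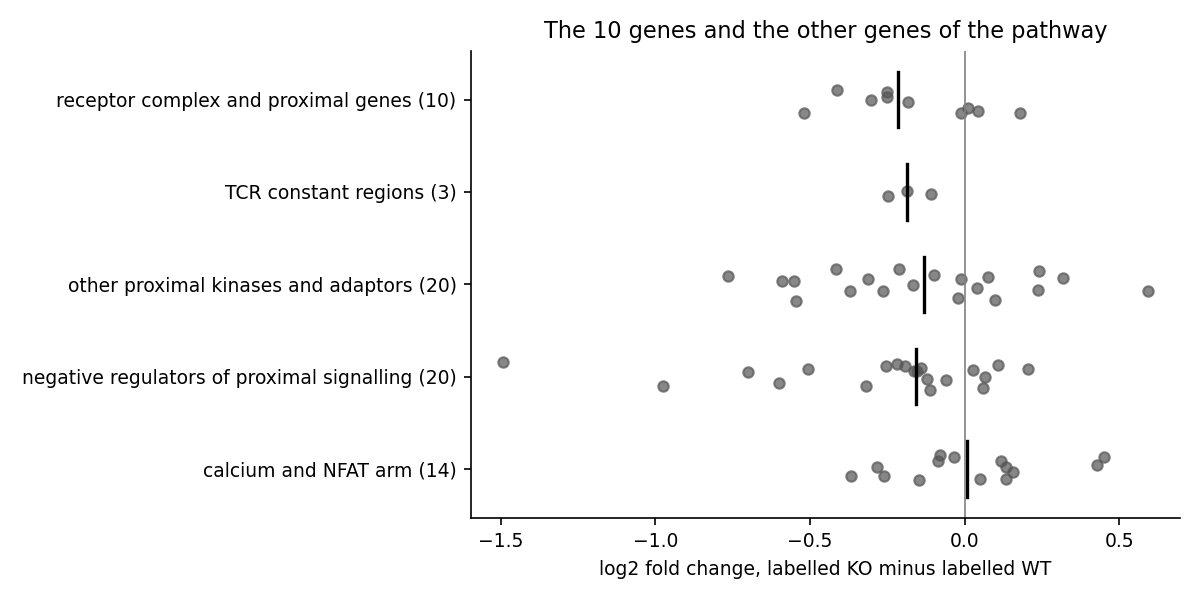
Log2 fold change, labelled KO minus labelled WT, of the 10 genes and of each gene of the 4 other lists, with the number of genes in brackets and a bar at the median. The medians of the 10 genes, the constant regions, the adaptors and the negative regulators lie below 0, and Ubash3b is the point farthest from 0, at −1.49.

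Levels of different genes were compared per length only, and here the length matters. The deposited FPKM implies a length of 7695 bases for Cd8a, longer than the 5747 bases the gene spans in the genome, whereas the implied 1483 bases of Cd8b1 equal its total exon length in GENCODE M21. For Cd8a the implied length was 2.12 times the total exon length of 3637 bases. Per deposited FPKM, Cd8b1 averaged 311 over the 4 libraries, Lck 105, Cd3e 71.4, Cd8a 68.9, Cd3d 68.5, Zap70 48.6, Lat 40.2, Cd3g 37.7, Ptprc 28.6 and Cd247 22.5. With the total exon length in its place, Cd8a came to 146 and stood next to Lck at 169, and the ratio of Cd8b1 to Cd8a became 2.06 and 1.95 in the libraries labelled KO and 2.45 and 2.06 in those labelled WT. Differences between labels within 1 gene do not depend on this length.

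**Figure D5:**
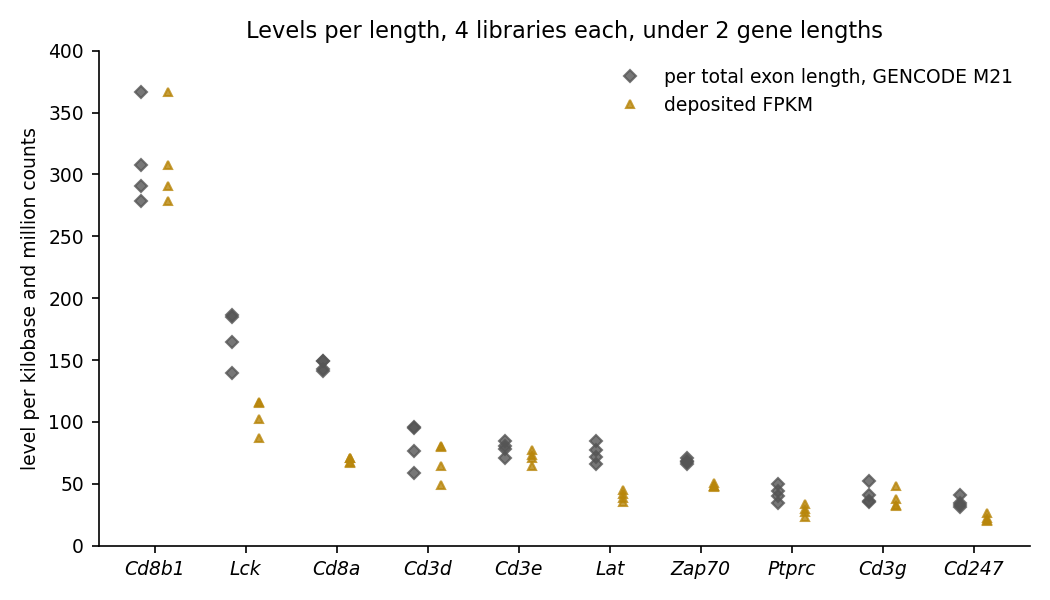
Level per kilobase and per 1000000 counts of each gene in the 4 libraries, with diamonds for the total exon length of GENCODE M21 and triangles for the deposited FPKM. Cd8b1 is highest under both lengths, and the values of Cd8a differ by a factor of 2.12 between them.

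On the scale of total exon length the 10 genes fell into 4 steps whose ranges over the libraries did not touch. Cd8b1 ranged between 279 and 367. Lck ranged between 139.8 and 187 and Cd8a between 141 and 149.6, and these ranges overlapped. Below them, Cd3d (58.4 to 95.9), Cd3e (70.7 to 84.8), Lat (65.6 to 84.2) and Zap70 (65.9 to 71.0) had ranges that overlapped. Within every library Cd3e was above Zap70, and the other pairs of this step changed order between libraries. The lowest were Ptprc (34.5 to 50.1), Cd3g (35.5 to 52.5) and Cd247 (31.4 to 41.2), whose ranges also overlapped. Within every library Ptprc and Cd3g were each above Cd247. Cd3d and Cd3g, neighbours with opposed starts, thus stood in different steps on this scale. With the deposited FPKM these steps did not hold. There Cd8a (66.7 to 70.7) lay within the range of Cd3d (49.1 to 80.7), and Cd3g (32.4 to 47.9) overlapped Lat (35.3 to 45.3). The order of the genes thus depends on the length used.

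All 10 genes carry the KEGG term for T cell receptor signalling in the deposited table, as do 99 of its genes in all. The Gene Ontology term for the same pathway stands on 5 of the 10, and not on Cd8a, Cd8b1, Lat, Cd3d or Cd3g. The genes nearest in pattern to the mean of the 4 CD3 chains were B4galnt1, a ganglioside synthase, Npc1, a lysosomal cholesterol transporter, and Irf2bp2, a corepressor that binds the factor IRF2. Their centred log2 CPM differed from the CD3 mean by a root mean square of 0.0042, 0.0051 and 0.011 over the 4 libraries. Of 4650 genes with at least 50 CPM, 336 lay within 0.1, so many genes share such a profile over 4 libraries and it does not single out the nearest ones.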

How the data were processed

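Counts per gene were read for 4 mRNA libraries of stimulated CD8+ T cells, made with a stranded kit per the labels' protocols. Per the file headers, the authors deposited whole-number counts and FPKM, the count per kilobase and per 1000000 counts. Per the submitters' processing notes the tool was kallisto and the build GRCm38, with no role or version. Strand setting and filters are not stated there. The table's columns carry the description codes and were joined to samples through them; 8 other columns of values were not used. For the 93 gene names found on several rows, the row with the most counts was taken.

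Genes were filtered by filterByExpr, scaled by TMM and tested by the quasi-likelihood test of edgeR 4.0.16 under R 4.3.3, as a two-sided test of labelled KO minus labelled WT, with Benjamini-Hochberg adjustment over all genes tested and a threshold of 0.05. SE is the size of the log2 fold change over the square root of F. The biological coefficient of variation was 15.9%. Chi-square per degree of freedom was 13.7 between the labelled KO replicates and 19.2 between the labelled WT replicates, where counting noise alone gives about 1. This does not tell separate animals from repeat preparations of 1 culture. The test was checked on simulated counts with 200 changed genes and a dispersion common to all genes. It recovered 100% of changes of 2 on the log2 scale and 79% of changes of 1. Smaller changes, such as those of the 10 genes, were not simulated, so the check does not tell how often they would be found. Alternatives were DESeq2 1.42.0, other scalings, no filter, limma 3.58.1 on log2(FPKM + 1) and log2(FPKM + 0.1), a replicate block and leaving out each library. GENCODE M21 gave exon lengths and overlaps, and all 10 genes had the same coordinates there as in the table.

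The genes and lists were chosen with earlier results of these data known. Named besides the 10 genes are Ppm1k, the constant region genes, the 2 genes with the smallest p in each direction of each other list, the nearest 3 profiles and the top markers. Ubash3a, Sla2, Dgka, Nfatc2, Pou2f1, the other overlapping genes, Cd4, Pax5 and the markers at 0 were named after their values were seen. One list of genes is not reported here. The 95% limits rest on the spread between libraries that edgeR pools across genes, and the coefficients of variation of the ratios cover counting error alone.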

Additional observations from a re-analysis of the deposited data

How the results depend on the processing

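None of the 10 genes passed the threshold under any of the 11 other settings. Cd3d, Cd3g, Cd247, Cd8b1, Lck, Zap70, Lat and Ptprc kept their sign in all of them. The log2 fold change of Cd3e ran from −0.099 to 0.136 with 1 library left out, and was −0.031 without labelled KO replicate 1 and −0.099 without labelled WT replicate 2. That of Cd8a was 0.01 with library totals alone and on log2(FPKM + 1) and log2(FPKM + 0.1), or 0.00751, 0.00763 and 0.00774 before rounding, and it ran from −0.059 to 0.043 with 1 library left out, with 0.043 without labelled KO replicate 2 and 0.022 without labelled WT replicate 1. The lowest adjusted p was 0.0871 for Cd3g and 0.105 for Cd3d. Over all genes, edgeR called 28, DESeq2 277, the fit with no filter 146, limma 5 with a pseudocount of 1 and 4 with 0.1, and between 8 and 304 were called with 1 library left out. Of the pathway lists, edgeR called 0 genes, DESeq2 6 and the fit with no filter 1 (Ubash3b), and 0 to 3 were called with 1 library left out: Ubash3b and Sit1 without labelled WT replicate 1, and Ubash3b, Dgka and Nfatc2 without labelled WT replicate 2. The median of the 10 genes ran from −0.286 to −0.0693 with 1 library left out. The ratios to Cd3e kept their direction with each library left out, which had to follow because their labels did not overlap. Of 44 medians of the other lists, 34 moved by less than the spread between replicates. A fit with 1 library left out takes the spread of the lone library to be like that of the other pair. The causes were not tested.

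With replicate number as a block, 123 genes were called, 1 gene of the pathway lists (Ubash3b) and 0 of the 10. Deviations of same-numbered libraries correlated at −0.17, so the crossed pairing was added after seeing the data, and it called 12 genes, 0 of the lists and 0 of the 10. Labels share only a number, and with 2 libraries a label the calls rest on the spread pooled across genes. A single value in 2 against 2 libraries cannot go below an exact two-sided p of 0.333.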
